A study of Mus musculus with 6 samples.

Results

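Interferon-stimulated effector genes were followed here as a set of 40 named genes, which encode proteins that sense viral nucleic acid, block viral replication or call in lymphocytes once a cell has received an interferon signal. The set was taken by gene symbol from the deposited table of FPKM values (fragments scaled by transcript length and by all mapped fragments), keeping those whose mean over the libraries reached 0.5 FPKM. All 40 of the 40 listed symbols were found and all 40 passed that minimum, out of 23351 genes in the table and 13408 genes at or above the same minimum. The lowest mean among them was 1.70 FPKM, for Mx2.

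The tissue was periosteum together with quadriceps from the surface of an injured bone in C57BL/6 mice. A total of 3 libraries came from mice given Clod-lip, taken here as liposomes loaded with clodronate, a drug that kills cells able to engulf the liposomes, and 3 from mice given Empty-lip, taken here as the same carrier without the drug. The labels give no age, sex, dose, route or time after injury, and do not say whether a library is 1 animal or a pool, so the p-values here speak only of how far these libraries scatter, which may be technical scatter. The stated aim concerns macrophage products in angiogenesis and healing, and the comparison asks which transcripts differ when phagocytes are targeted.

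Type I interferons bind a receptor pair, IFNAR1 and IFNAR2, whose kinases JAK1 and TYK2 switch on transcription factors in the cytoplasm. The complex ISGF3, which holds STAT2 and IRF9, binds interferon-stimulated response elements in the promoters of its target genes, and IRF7 and ISGF3 themselves are made in larger amounts after interferon. Macrophages and monocytes express many of these genes, but nearly every nucleated cell can, so a level in whole tissue is a sum over cell types. In such bulk samples fewer cells of a type and less RNA per cell cannot be told apart.

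Without microRNA and small nucleolar RNA genes, FPKM summed to between 561414 and 606630 per library. Those small RNA genes held 32.7%, 0.189% and 0.0985% of summed FPKM in Clod-lip 1, 2 and 3, against 45.1%, 39.1% and 47.7% in Empty-lip 1, 2 and 3, so Clod-lip 1 lay nearer to the Empty-lip libraries in this respect; the part of this difference in the results was not tested. Absolute depth is not known; from the spacing of low FPKM values, and barring another scaling, depth ran between 0.995 and 1.13 times that of Empty-lip 1. Markers of the labelled tissue were present, with Acta1, skeletal muscle actin, at 6224 to 7303 FPKM in Clod-lip, against 3367 to 4341 FPKM in Empty-lip, and Postn, periostin, at 456 to 523 FPKM in Clod-lip, against 451 to 468 FPKM in Empty-lip. The library labelled Clod-lip 2 stood apart from the other Clod-lip libraries, with S100a8, a neutrophil gene, at 1608 FPKM. It held the macrophage gene Adgre1 (F4/80, listed as Emr1) at 144 FPKM, beside 82.8 and 90.5 FPKM in Clod-lip 1 and 3. In Empty-lip 1, 2 and 3 Adgre1 stood at 131, 143 and 133 FPKM, so Clod-lip 2 lay above all of them. Over 12 macrophage markers, the median in Clod-lip 2 was 90.6% of the Empty-lip mean. Empty-lip 1 held the most S100a8 of the Empty-lip libraries, 644 FPKM.

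Interferon-stimulated effector genes lay lower in Clod-lip than in Empty-lip throughout the set. All 40 had a negative log2 change, with a median of -0.83, against 51.9% negative and a median of -0.01 over the 13408 genes tested. By limma on log2(FPKM + 1), 13 of the 40 fell and 0 rose at an adjusted p of 0.05 or less, and 27 did not pass; among all genes tested, 1.21% fell and 2.84% rose. The 13 that fell were Rsad2, Ifi35, Mx1, Ifit1, Dtx3l, Dhx58, Adar, Usp18, Herc6, Ifit2, Parp12, Cxcl10 and Ifit3, with adjusted p from 0.0272 to 0.0499. In 34 members every Clod-lip library lay below every Empty-lip library, which was so for 13.4% of all genes tested; the opposite order held for 0 members and 14.0% of all genes. At an unadjusted p under 0.05 there were 37 members, all lower, against 10.4% of all genes.

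Several members stood close to the threshold. Trim21, Samhd1, Parp14, Eif2ak2, Cmpk2 and Zbp1 had adjusted p from 0.0505 to 0.0520, and Ifit3, the last to pass, had 0.0499. Per the authors' deposited table, 36 of the 39 members tested there were called lower and 0 higher. Among all genes tested there, 5.41% were called lower and 6.82% higher. The authors' comparison gave 30 members the same p of 5e-05, the smallest among the members. The share of all genes at that p was not counted, so this number of members stands without a background. The 3 members that the authors' comparison did not call were Isg20 (q = 0.409), Parp9 (q = 0.0671) and Cxcl9 (q = 0.111), and Mx2 was marked as not tested. All 13 members that fell here were called in that table.

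The number of calls changed with the library left out, while the direction of the 40 changes did not turn in any fit. Without Clod-lip 2, 37 members fell and the median log2 change was -1.08, against 5.83% of all genes falling. Clod-lip 2 was the highest Clod-lip library for 39 of 40 members, so leaving it out had to enlarge those changes. Without Empty-lip 1 and Clod-lip 2 together, 34 fell, against 4.56% of all genes. Leaving out another library left the limma test with few or no calls: 0 members without Clod-lip 1 (0.0597% of all genes falling), 0 without Clod-lip 3 (0.0298%), 1 without Empty-lip 1 (0.343%), 0 without Empty-lip 2 (0.00746%) and 0 without Empty-lip 3 (0.0522%). At an unadjusted p under 0.05 these fits held 35, 36, 36, 32 and 35 members, in the same order, and their median log2 changes ran from -0.88 to -0.69. The share of all genes at that unadjusted threshold was not counted in these fits, so those member counts stand without a background. Limma without the trend called 2 members (0.358% of all genes falling) and limma with no filter on low values 0 (0.0899%), while a pseudocount of 0.1 gave 11 (1.18%), one of 0.5 gave 11 (1.15%), a minimum mean of 5 FPKM gave 18 of the 35 members left (2.32%) and quantile normalization 16 (1.22%). The 3 members that did not pass without Clod-lip 2 were Isg20, Mx2 and Ifi44.

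**Figure D1:**
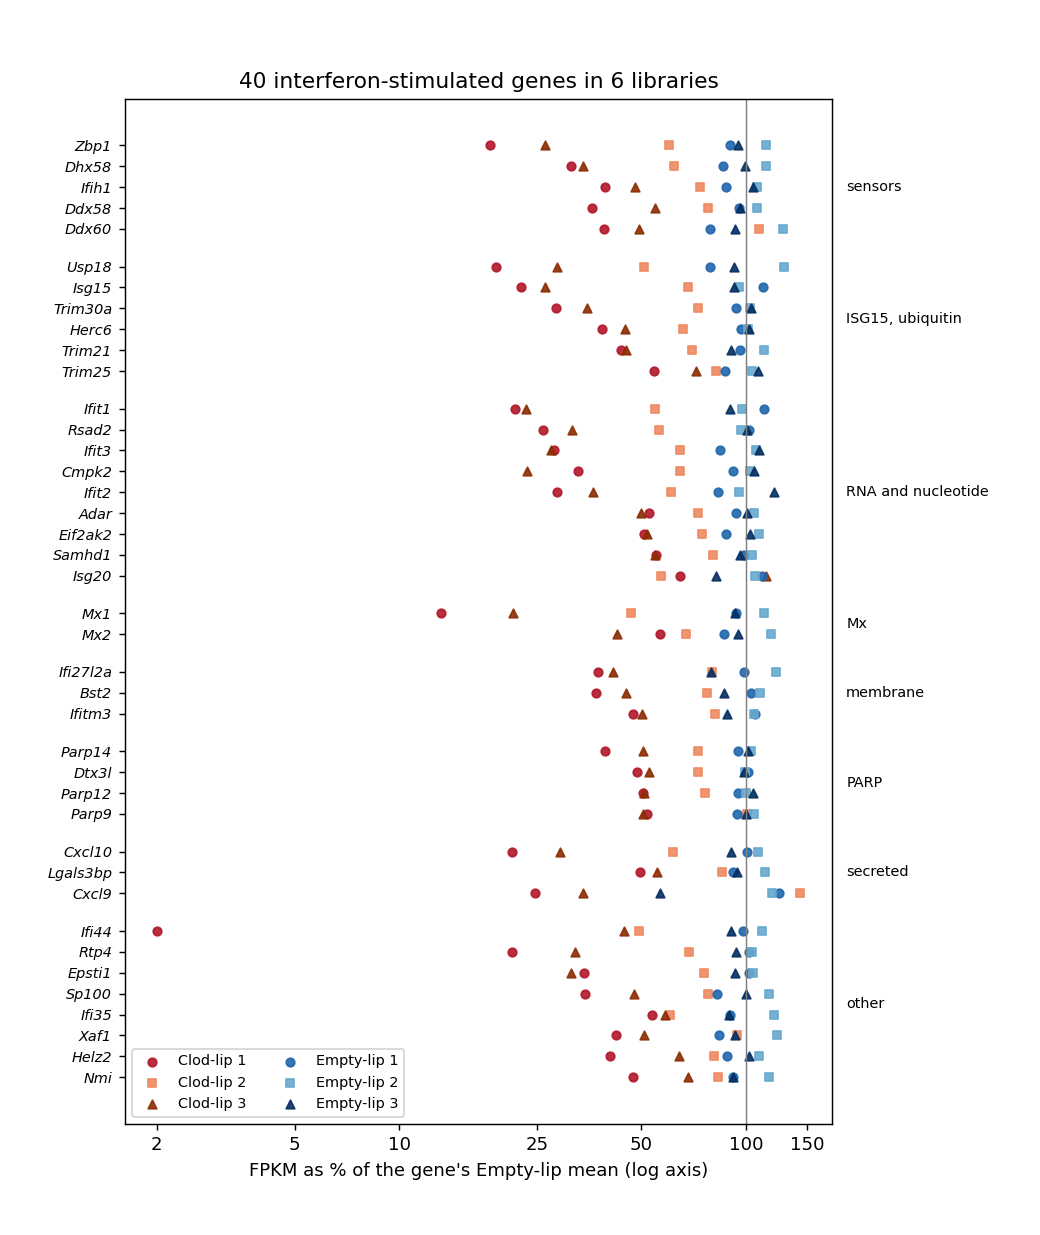
FPKM of each of 40 members in 6 libraries, as a percentage of the gene's Empty-lip mean on a log axis, with 1 row per gene, grouped by role. Clod-lip 1 and Clod-lip 3 lie furthest left for most genes, Clod-lip 2 lies between them and the Empty-lip libraries in most rows, and the groups do not overlap for 34 genes.

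Members differed in where their promoters hold a response element. RefSeq promoter windows on GRCm38.p6, the release of the mm10 assembly, run from 250 bases before to 50 bases after each start site and were matched for 31 of the 40 members. The core of the interferon-stimulated response element was searched as GAAA, any 2 bases, GAAA on both strands, with overlapping matches counted separately. It was found in 13 of 31 members, 41.9%, against 3.80% of the 9906 tested genes with a window and 3.99% of all 27025 genes with one. Of the members that fell, 4 of 10 with a window held it, and of those that did not pass, 9 of 21. A second interferon-linked pattern, TTC, any 3 bases, GAA, was searched in the same windows. It was found in 8 of 31 members, 25.8%, against 8.36% of the 9906 tested genes with a window. Of the members that fell, 3 of 10 held this second pattern, and of those that did not pass, 5 of 21. A match to either describes letters and is not evidence of binding.

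The sequences of 5 promoters with the element before the start site are shown, all of genes with log2 changes between -1.59 and -1.37. Ifi35 (log2 -0.75) is shown as a gene that fell with no match to the element in its window, which holds 1 match to the second pattern. Large changes also occurred without the element, as in Ifi44 (-1.43) and Cmpk2 (-1.27), while Ddx60, with 2 matches, changed by -0.53. Each sequence gives the 250 bases before the start site on the gene's own strand, 5′ to 3′, with matches to the element or its reverse complement in capitals. On GRCm38.p6 they lie at chr4:156200819-156201068 (Isg15, minus strand), chr19:34640639-34640888 (Ifit1, plus strand), chr19:34583279-34583528 (Ifit3, plus strand), chr12:26456453-26456702 (Rsad2, minus strand), chr5:92348890-92349139 (Cxcl10, minus strand) and chr11:101448162-101448411 (Ifi35, plus strand).
Isg15: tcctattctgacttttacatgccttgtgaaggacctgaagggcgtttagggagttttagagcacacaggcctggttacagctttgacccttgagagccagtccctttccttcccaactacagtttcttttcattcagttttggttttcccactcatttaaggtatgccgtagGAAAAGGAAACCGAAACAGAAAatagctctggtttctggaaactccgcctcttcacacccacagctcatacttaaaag
Ifit1: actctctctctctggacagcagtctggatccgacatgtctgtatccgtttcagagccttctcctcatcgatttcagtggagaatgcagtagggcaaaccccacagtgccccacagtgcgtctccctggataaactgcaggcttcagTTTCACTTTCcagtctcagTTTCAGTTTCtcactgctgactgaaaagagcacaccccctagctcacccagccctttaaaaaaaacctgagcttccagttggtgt
Ifit3: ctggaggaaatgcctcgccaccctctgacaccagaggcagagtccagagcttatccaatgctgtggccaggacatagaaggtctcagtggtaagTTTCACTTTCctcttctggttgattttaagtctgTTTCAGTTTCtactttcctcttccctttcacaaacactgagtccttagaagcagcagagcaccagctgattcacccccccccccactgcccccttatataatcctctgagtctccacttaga
Rsad2: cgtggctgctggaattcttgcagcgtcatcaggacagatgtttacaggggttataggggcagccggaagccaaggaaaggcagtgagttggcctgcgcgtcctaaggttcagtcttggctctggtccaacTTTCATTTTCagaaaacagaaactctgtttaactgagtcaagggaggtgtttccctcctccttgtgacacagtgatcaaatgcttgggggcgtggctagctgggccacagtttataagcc
Cxcl10: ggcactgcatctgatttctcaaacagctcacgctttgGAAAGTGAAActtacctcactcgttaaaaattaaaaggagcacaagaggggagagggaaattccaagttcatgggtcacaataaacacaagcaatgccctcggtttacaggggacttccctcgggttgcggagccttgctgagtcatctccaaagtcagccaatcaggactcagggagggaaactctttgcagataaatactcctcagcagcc
Ifi35: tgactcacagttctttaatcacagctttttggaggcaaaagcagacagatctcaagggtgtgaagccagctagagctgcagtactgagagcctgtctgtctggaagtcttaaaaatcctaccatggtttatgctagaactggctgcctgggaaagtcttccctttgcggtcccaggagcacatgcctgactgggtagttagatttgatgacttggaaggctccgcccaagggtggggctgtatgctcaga
In Isg15 3 overlapping matches ran together into 1 block that began 78 bases before the start site. Ifit1 held 2 separate matches, 104 and 85 bases before its start, and Ifit3 held 2 at 156 and 122 bases. Rsad2 had a single match 120 bases before the start and Cxcl10 a single one at 213 bases.

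The 3 other members with a match before the start site did not pass the test. Stretches of 30 bases around their matches are shown in the same way, from chr8:71537580-71537609 (Bst2, minus strand), chr7:104465210-104465239 (Trim30a, minus strand) and chr8:61928057-61928086 (Ddx60, plus strand). For Ddx60, which holds 2 matches before its start, the one nearer to the start is shown.
Bst2: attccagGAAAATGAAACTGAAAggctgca
Trim30a: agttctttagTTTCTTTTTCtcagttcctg
Ddx60: ggagcagaagaGAAACCGAAActatccttc
In Ddx58, Eif2ak2, Ifih1, Ifitm3 and Trim21 the matches lay after the start site.

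**Figure D2:**
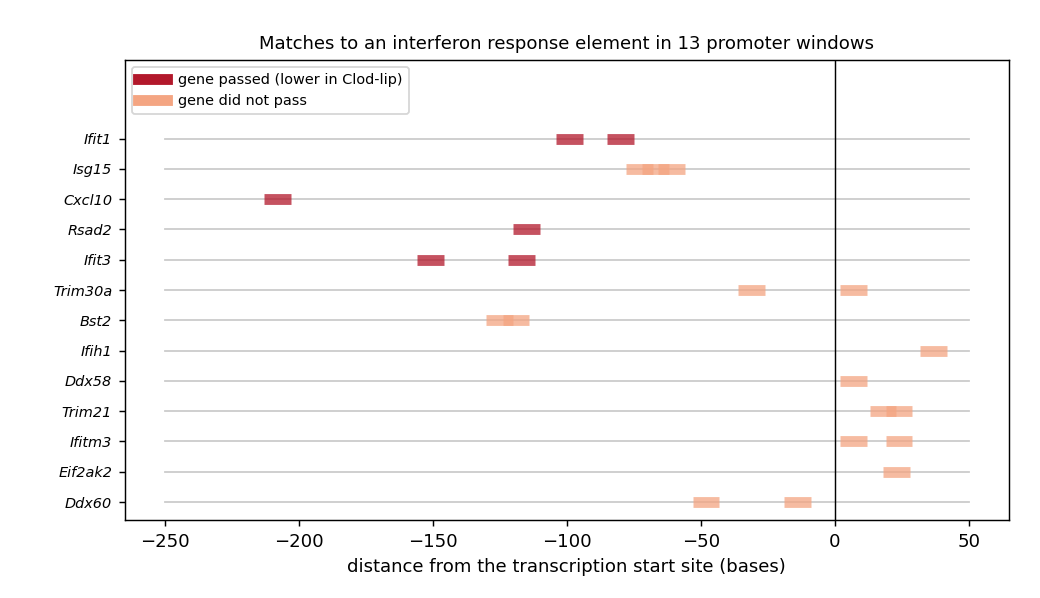
Position of each match to GAAA, any 2 bases, GAAA or its reverse complement, in bases from the transcription start site, in the windows of the 13 members that hold one, ordered by log2 change with the most negative at the top. Matches of the 4 genes that fell lie from 213 to 85 bases before the start, while those of the genes that did not pass lie on both sides of it.

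Among RNA and nucleic acid sensors, 1 of 5 fell, 0 rose and 4 did not pass, with a median log2 change of -0.83. Dhx58, which encodes LGP2, a regulator of the RNA sensors RIG-I and MDA5, stood at 7.75, 15.4 and 8.41 FPKM in Clod-lip 1, 2 and 3, against 21.3, 28.2 and 24.7 FPKM in Empty-lip 1, 2 and 3. The groups did not overlap, and Clod-lip 2 was the highest of the Clod-lip libraries (log2 -1.21 ± 0.24 (SE), limma adjusted p = 0.0383). Ddx58, which encodes RIG-I itself, a sensor of viral RNA ends, was at 6.21, 13.3 and 9.42 FPKM in Clod-lip, against 16.5, 18.5 and 16.6 FPKM in Empty-lip. Those groups did not overlap either, but the gene did not pass (log2 -0.83 ± 0.23, limma adjusted p = 0.0885). Zbp1, a sensor of Z-form nucleic acid that can start necroptosis, had a log2 change of -1.63 ± 0.36 (adjusted p = 0.0520), the largest of the 5, with 9.53 and 13.7 FPKM in Clod-lip 1 and 3 and 31.3 FPKM in Clod-lip 2, against 47.2 to 59.9 FPKM in Empty-lip. Ifih1, which encodes MDA5, a sensor of long double-stranded RNA, had a log2 change of -0.83, and Ddx60 one of -0.53 with overlapping groups.

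The ubiquitin-like modifier ISG15 and the enzymes around it formed a second group, in which 2 of 6 fell, 0 rose and 4 did not pass. Usp18, which encodes the protease that removes ISG15 and damps signalling at the interferon receptor, stood at 3.89, 10.4 and 5.82 FPKM in Clod-lip, against 16.1, 26.3 and 18.9 FPKM in Empty-lip. Its Clod-lip mean was 32.8% of the Empty-lip mean (log2 -1.54 ± 0.31, limma adjusted p = 0.0398). Herc6, which encodes the main mouse ligase for ISG15, was at 2.30, 3.94 and 2.68 FPKM in Clod-lip, against 5.77, 6.06 and 6.09 FPKM in Empty-lip. All its Empty-lip libraries lay within a narrow range above the Clod-lip ones (log2 -0.83 ± 0.17, limma adjusted p = 0.0404).

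Isg15 itself did not pass. It stood at 22.7, 68.7 and 26.7 FPKM in Clod-lip, against 113, 96.4 and 93.3 FPKM in Empty-lip, a log2 change of -1.51 ± 0.36 (limma adjusted p = 0.0640). Clod-lip 2 held more than both other Clod-lip libraries together, though less than any Empty-lip library, and without it the adjusted p was 0.00103, the lowest of any member in that fit. Since that fit leaves out the highest Clod-lip value, it gives no separate support for a fall of Isg15. Isg15 lies on chromosome 4 from 156199424 to 156200818 on the minus strand. Of the ubiquitin ligases, Trim30a had a log2 change of -1.20, Trim21, an intracellular antibody receptor, one of -0.80, and Trim25, a ligase that activates RIG-I in human cells, one of -0.52, none passing.

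Effectors that act on RNA or nucleotides held the most calls. Of 9, 5 fell, 0 rose and 4 did not pass, with a median log2 change of -1.23. Rsad2, which encodes viperin, an enzyme that makes a chain-terminating nucleotide, stood at 7.01, 15.1 and 8.50 FPKM in Clod-lip, against 27.5, 26.1 and 27.2 FPKM in Empty-lip. The Empty-lip libraries were nearly level while the Clod-lip libraries spread, and the groups did not overlap (log2 -1.38 ± 0.23, limma adjusted p = 0.0272). Ifit1, which binds viral RNA lacking the host cap methyl group, was at 5.40, 13.7 and 5.82 FPKM in Clod-lip, against 28.1, 24.3 and 22.5 FPKM in Empty-lip. Its Clod-lip mean was 33.2% of the Empty-lip mean (log2 -1.59 ± 0.30, limma adjusted p = 0.0354).

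The related genes Ifit2 and Ifit3, whose products work in complexes with IFIT1 in human cells, also fell. Ifit2 stood at 8.02, 17.1 and 10.2 FPKM in Clod-lip, against 23.4, 26.9 and 33.9 FPKM in Empty-lip (log2 -1.23 ± 0.25, limma adjusted p = 0.0435). Ifit3 was at 10.7, 24.7 and 10.5 FPKM in Clod-lip, against 32.3, 40.9 and 41.7 FPKM in Empty-lip (log2 -1.37 ± 0.30, limma adjusted p = 0.0499). In both, as in Ifit1, Clod-lip 2 was the highest Clod-lip library and still below every Empty-lip library. Near copies have entries of their own, so reads shared between copies leave the split uncertain: I830012O16Rik, the file's symbol for Ifit3b, was at 1.85 to 3.58 FPKM in Clod-lip, against 7.31 to 8.38 FPKM in Empty-lip, Gm14446, the file's symbol for Ifit1bl1, at 0.439 to 1.78 FPKM in Clod-lip, against 5.36 to 6.52 FPKM in Empty-lip, and 2010002M12Rik, a further relative of Ifit1, at 0.291 to 0.841 FPKM in Clod-lip, against 0.183 to 0.822 FPKM in Empty-lip, with overlapping groups.

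Adar, which encodes the enzyme that edits adenosine in double-stranded RNA, also fell. It stood at 8.15, 11.2 and 7.73 FPKM in Clod-lip, against 14.5, 16.3 and 15.6 FPKM in Empty-lip (log2 -0.73 ± 0.14, limma adjusted p = 0.0388), a smaller change than that of the Ifit genes. Cmpk2, a mitochondrial nucleotide kinase, Samhd1, which depletes nucleotides for reverse transcription, and Eif2ak2, which encodes the kinase PKR, had log2 changes of -1.27, -0.67 and -0.72 without passing. Isg20, an exonuclease, was the member with the smallest change. It stood at 9.97, 8.80 and 17.6 FPKM in Clod-lip, against 17.2, 16.4 and 12.7 FPKM in Empty-lip, with overlapping groups (log2 -0.37 ± 0.24, limma adjusted p = 0.424). Clod-lip 3 held the most Isg20 of all libraries, and it was the 1 member in which Clod-lip 2 was not the highest Clod-lip library.

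**Figure D3:**
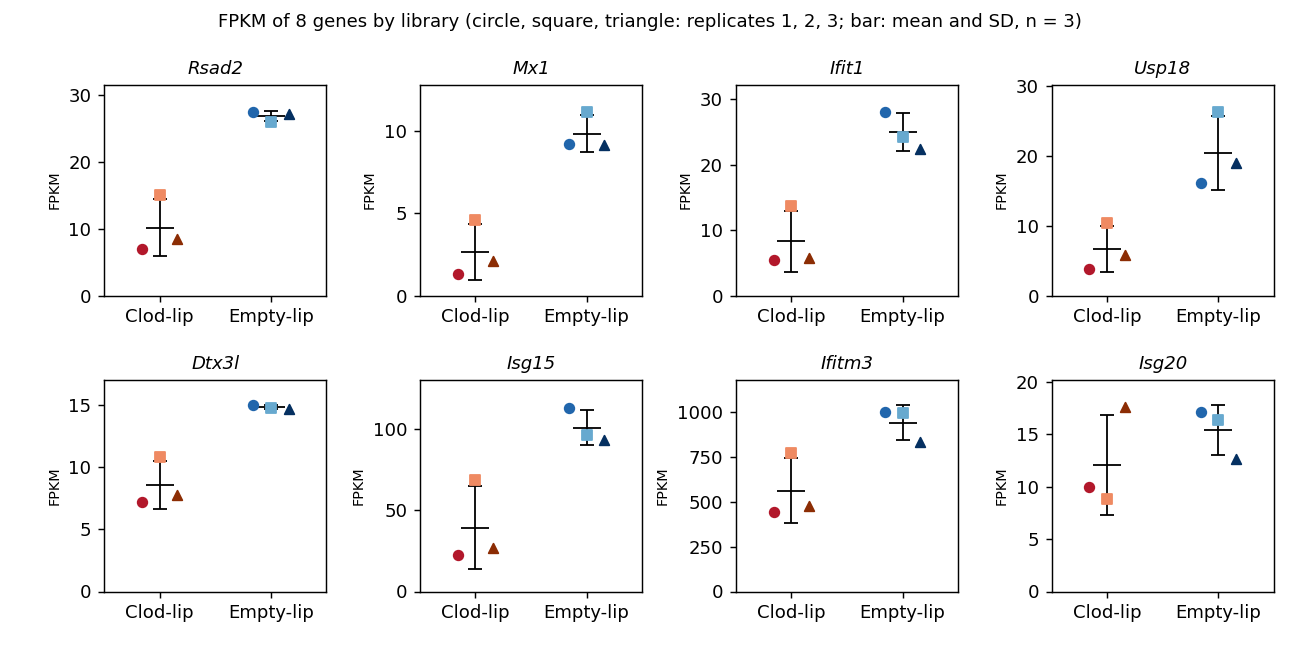
FPKM of 8 members in each library, Clod-lip left and Empty-lip right, with the mean and SD of 3 libraries per group and an axis starting at 0. The groups are separate for all but Isg20, and Clod-lip 2, the square in the left group, is the highest Clod-lip library for all but Isg20.

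Mx1 and Mx2, of a family of dynamin-like GTPases that can trap viral nucleocapsids, had 1 call between them. Mx1 stood at 1.30, 4.58 and 2.09 FPKM in Clod-lip, against 9.22, 11.1 and 9.16 FPKM in Empty-lip. Every Clod-lip library lay below every Empty-lip library (log2 -1.66 ± 0.30, limma adjusted p = 0.0310), and the Clod-lip mean, 27.0% of the Empty-lip mean, was the lowest share of any member. Mx2 was at 0.931 to 1.47 FPKM in Clod-lip, against 1.90 to 2.60 FPKM in Empty-lip, and did not pass (log2 -0.53, limma adjusted p = 0.124). At its low level the pseudocount shrinks the change of Mx2, which was -0.81 with a pseudocount of 0.1, and whether Mx1 and Mx2 differed in their change was not tested. The C57BL/6 strain is known to carry a defective Mx1 allele, and the function of neither protein was measured.

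Membrane proteins were the most abundant members and none of 3 passed. Ifitm3, which blocks fusion of incoming viruses in endosomes, stood at 445, 772 and 475 FPKM in Clod-lip, against 1004, 994 and 833 FPKM in Empty-lip (log2 -0.78 ± 0.20, limma adjusted p = 0.0785). Ifi27l2a was at 197, 422 and 218 FPKM in Clod-lip, against 520, 642 and 417 FPKM in Empty-lip (log2 -0.98 ± 0.29, limma adjusted p = 0.104). The groups were separate for Ifitm3 and overlapped for Ifi27l2a by Clod-lip 2. Bst2, which encodes tetherin and holds budding viruses at the cell surface, had a log2 change of -0.97 (limma adjusted p = 0.0751). Ifitm2, a close relative of Ifitm3 that is no member, was at 360 to 624 FPKM in Clod-lip, against 491 to 645 FPKM in Empty-lip.

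In the PARP group, which attaches ADP-ribose to proteins, 2 of 4 fell, 0 rose and 2 did not pass. Dtx3l, a ubiquitin ligase that pairs with PARP9, stood at 7.21, 10.8 and 7.79 FPKM in Clod-lip, against 15.0, 14.8 and 14.7 FPKM in Empty-lip. The Empty-lip values were nearly identical, and the Clod-lip mean was 57.9% of theirs (log2 -0.74 ± 0.14, limma adjusted p = 0.0382). Parp12 was at 12.1, 18.4 and 12.2 FPKM in Clod-lip, against 22.8, 24.0 and 25.3 FPKM in Empty-lip (log2 -0.74 ± 0.16, limma adjusted p = 0.0473). Parp14 had a log2 change of -0.87 and Parp9 one of -0.59, with Parp9 in Clod-lip 2, at 20.0 FPKM, inside the Empty-lip range. Dtx3l and Parp9 overlap on opposite strands of chromosome 16, and the labels do not say whether strand was kept, so reads of the overlap cannot be told apart.

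Of the secreted proteins, 1 of 3 fell, 0 rose and 2 did not pass. Cxcl10, a chemokine that draws activated T cells through CXCR3, stood at 6.41, 18.7 and 8.80 FPKM in Clod-lip, against 30.5, 32.9 and 27.4 FPKM in Empty-lip. Its Clod-lip mean was 37.4% of the Empty-lip mean (log2 -1.47 ± 0.32, limma adjusted p = 0.0495). Cxcl9, a ligand of the same receptor that is induced mainly by interferon gamma, did not pass. It was at 1.36, 7.86 and 1.86 FPKM in Clod-lip, against 6.85, 6.52 and 3.10 FPKM in Empty-lip (log2 -0.67 ± 0.50, limma adjusted p = 0.490). Clod-lip 2 held the most Cxcl9 of all libraries, and without it the change was larger (log2 -1.26, limma adjusted p = 0.0445). That fit leaves out the highest Clod-lip value, so it gives no separate support for a fall. Whether Cxcl9 and Cxcl10 differed in their change was not tested. Lgals3bp, a secreted binding protein of galectin-3, had a log2 change of -0.69 (limma adjusted p = 0.0958).

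In the remaining group of induced proteins, 1 of 8 fell, 0 rose and 7 did not pass. Ifi35, which binds NMI, stood at 18.1, 20.5 and 19.8 FPKM in Clod-lip, against 30.4, 40.7 and 30.2 FPKM in Empty-lip (log2 -0.75 ± 0.13, limma adjusted p = 0.0277). It was the 1 member whose relative spread was smaller in Clod-lip than in Empty-lip, and Clod-lip 2 stood level with the other Clod-lip libraries. Nmi itself had a log2 change of -0.58. Rtp4 and Epsti1 had log2 changes of -1.41 and -1.14, Sp100, a nuclear body protein, one of -0.94, and Xaf1 and Helz2 ones of -0.65 and -0.64. Ifi44 had one of -1.43, with 0.113, 2.78 and 2.51 FPKM in Clod-lip against 5.12 to 6.29 FPKM in Empty-lip, so that Clod-lip 1 accounts for much of its spread.

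**Figure D4:**
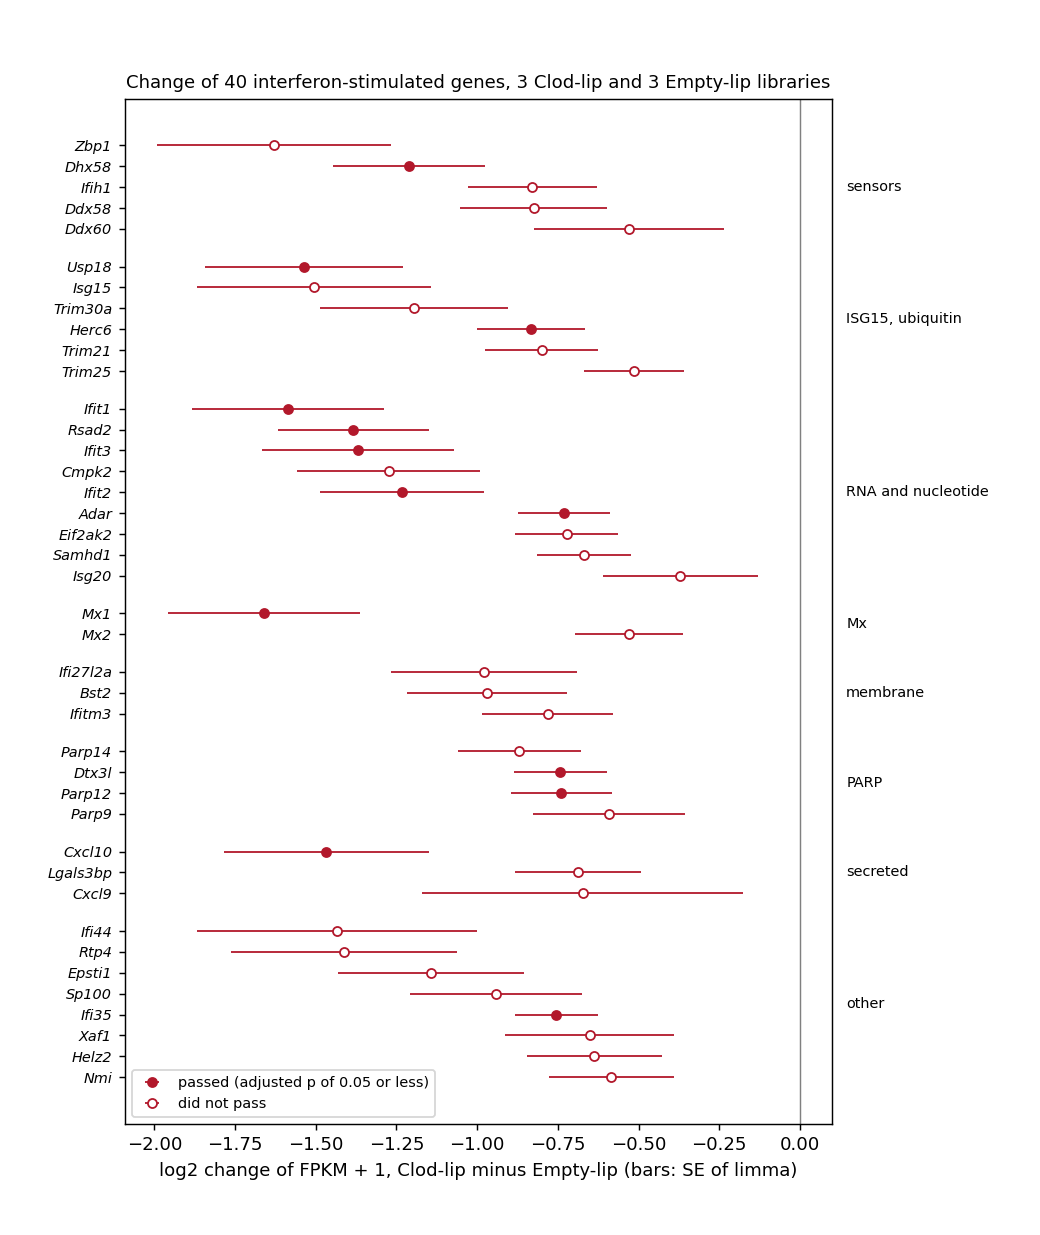
Log2 change of FPKM + 1, Clod-lip minus Empty-lip, for 40 members grouped by role, with the SE from limma as bars. All points lie left of 0, from -1.66 for Mx1 to -0.37 for Isg20, and filled points mark the 13 genes that passed.

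Variation within the groups was shared among members. The coefficient of variation had a median of 40.3% over members in Clod-lip and 11.3% in Empty-lip; over all genes tested the medians were 12.3% (Clod-lip) and 10.4% (Empty-lip). It was larger in Clod-lip for 39 of 40 members, against 57.4% of all genes. Clod-lip 2 was the highest Clod-lip library for 39 of 40 members, against 35.1% of all genes, and Clod-lip 1 was the lowest for 32, against 33.4% of all genes. As a percentage of the Empty-lip mean, the median member stood at 38.0%, 72.7% and 45.1% in Clod-lip 1, 2 and 3. Clod-lip 1 lay below the lowest Empty-lip library for 40 members, against 32.4% of all genes, Clod-lip 3 for 39, against 33.8%, and Clod-lip 2 for 35, against 31.8%. Among the Empty-lip libraries the median member was at 94.2%, 108% and 95.0% in Empty-lip 1, 2 and 3, so Empty-lip 1, with its higher S100a8, did not stand apart for these genes.

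Several members lie side by side in the genome. On GRCm38, Ifit2, Ifit3 and Ifit1 span chromosome 19 from 34550694 to 34650009, and all 3 fell. Rsad2 and Cmpk2 lie 12752 bases apart on chromosome 12, with log2 changes of -1.38 and -1.27. Parp14, Dtx3l and Parp9 share a stretch of chromosome 16, as do Mx1 and Mx2, which lie 72401 bases apart and changed by -1.66 and -0.53. Cxcl9 and Cxcl10 lie 18559 bases apart on chromosome 5. Cxcl10 lies within Art3 and Adar overlaps Chrnb2, so with strand not stated their values may hold reads of these genes. Rtp4 overlaps Masp1 in GENCODE M21, where it runs from 23520291 to 23614222, but its deposited position spans only 4304 bases. Whether that shorter position reaches Masp1 was not checked.

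Genes that carry the interferon signal were lower in parts of the pathway. Of 39 listed genes that are no members, 31 were tested, of which 6 fell, 0 rose and 25 did not pass, against 1.21% of all genes falling and 2.84% rising; the median log2 change was -0.33. Irf7, the factor that amplifies type I interferon, stood at 26.1, 66.2 and 32.8 FPKM in Clod-lip, against 120, 132 and 93.4 FPKM in Empty-lip (log2 -1.54 ± 0.31, limma adjusted p = 0.0412). The groups were separate and Clod-lip 2 again stood highest in Clod-lip. Of the ISGF3 components, Stat2 was at 6.44, 12.9 and 9.39 FPKM in Clod-lip, against 18.2, 19.3 and 21.5 FPKM in Empty-lip (log2 -1.01 ± 0.21, limma adjusted p = 0.0450). Irf9 averaged 15.4 ± 3.29 FPKM in Clod-lip, against 25.9 ± 0.562 FPKM in Empty-lip (SD, n = 3 each; log2 -0.73, limma adjusted p = 0.0359). Irf7 overlaps Phrf1 on the opposite strand and Irf9 overlaps Rnf31 on its own strand, so their values may hold reads of these genes.

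The other pathway genes that fell were Tlr7, an endosomal sensor of single-stranded RNA (log2 -0.66), Tmem173, which encodes STING (log2 -0.55), and Il10rb, a shared receptor chain (log2 -0.52). Jak1 averaged 58.4 ± 4.96 FPKM in Clod-lip, against 61.6 ± 1.01 FPKM in Empty-lip, and Tyk2 10.4 ± 1.11 FPKM in Clod-lip, against 11.0 ± 1.38 FPKM in Empty-lip (SD, n = 3 each), with log2 changes of -0.08 and -0.07. Of the receptors, Ifnar1 had a log2 change of -0.37 and Ifngr1 one of -0.33, neither passing. All 6 calls among pathway genes were lost without any 1 of Clod-lip 1, Clod-lip 3 and the 3 Empty-lip libraries. Without Clod-lip 2, 16 of the 31 tested pathway genes fell, against 5.83% of all genes. The median pathway gene stood at 70.0%, 91.5% and 73.9% of its Empty-lip mean in Clod-lip 1, 2 and 3. That fit leaves out the Clod-lip library with the highest median, so it gives no separate support for a fall.

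Transcripts of the interferons themselves were at or near 0. Ifna2, Ifna4, Ifna5, Ifna12 and Ifnl3 were listed at 0 in all 6 libraries. Ifnb1 was listed at 0 except for 0.50 FPKM in Empty-lip 3, and Ifng at 0 except for 0.302 FPKM in Clod-lip 1 and 0.322 FPKM in Clod-lip 2. None of the 7 reached the minimum for testing, and a value listed at 0 does not show absence.

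Macrophage and monocyte markers had negative median changes, as the members did, and their medians were also highest in Clod-lip 2 among the Clod-lip libraries. So were the medians of the neutrophil, T and NK cell, B cell and plasmacytoid dendritic cell lists. The T and NK cell list also had a negative median change, -0.19. Of 12 macrophage markers, 3 fell, 0 rose and 9 did not pass. A negative log2 change was seen in 11, while Cd163 had one of 0.14, and the median was -0.51. The 3 that fell were Mrc1, a mannose receptor, Mertk, a receptor for dying cells, and Fcgr1, an antibody receptor. The summed level of the 12 was 1617 to 2803 FPKM in Clod-lip, against 2940 to 3082 FPKM in Empty-lip, and none of the 12 was at 0. The median macrophage marker stood at 62.2%, 90.6% and 58.0% of its Empty-lip mean in Clod-lip 1, 2 and 3, above the median member in each of these libraries. Of 8 monocyte markers, 3 fell, 0 rose and 5 did not pass, with a median log2 change of -0.94 and sums of 240 to 457 FPKM in Clod-lip, against 556 to 694 FPKM in Empty-lip. The median monocyte marker stood at 41.2%, 69.9% and 40.5% in Clod-lip 1, 2 and 3, beside 38.0%, 72.7% and 45.1% for the median member. Ccr2, the receptor by which monocytes leave the marrow, fell with a log2 change of -1.34, Plac8 with one of -1.75 and Ms4a4c with one of -1.99. The 5 monocyte markers that did not pass ran from -1.48 for Ly6c2 to -0.32 for Spn, all with overlapping groups. Fcgr1, itself induced by interferon gamma, fell with a log2 change of -1.55. Whether other genes of these 2 lists respond to interferon was not tested. The part of macrophages and monocytes in the members' change was not tested.

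The other marker lists differed among themselves. All 10 skeletal muscle markers rose (Acta1, Ckm, Myh4, Myh1, Atp2a1, Pygm, Actn3, Tnnt3, Mylpf and Tnni2), with sums of 22019 to 24075 FPKM in Clod-lip, against 10279 to 13880 FPKM in Empty-lip, while the median log2 change was 0.08 over 8 fibroblast and periosteum markers and 0.26 over 7 endothelial markers. Of 8 fibroblast and periosteum markers, 1 (Thy1) fell, 0 rose and 7 did not pass, and of 7 endothelial markers 0 fell and 0 rose by limma, with 4 at an unadjusted p under 0.05. Of 11 neutrophil markers, 5 (Mpo, Elane, Camp, Ngp and Ltf) rose, 0 fell and 6 did not pass, with sums of 912 to 3458 FPKM in Clod-lip, against 532 to 1347 FPKM in Empty-lip; 1 more listed symbol, Ly6g, was not matched. The part of these shifts in the members' change was not tested. Of 8 listed markers of plasmacytoid dendritic cells, a strong source of type I interferon, 5 were tested. Siglech was at 0.403 to 0.744 FPKM in Clod-lip, against 0.138 to 0.887 FPKM in Empty-lip, and Ccr9, Klk1 and Pacsin1 did not reach the minimum. Il3ra stood at 10.3 to 17.4 FPKM in Clod-lip, against 14.1 to 19.8 FPKM in Empty-lip, Ly6d at 1.22 to 3.55 FPKM in Clod-lip, against 1.16 to 2.60 FPKM in Empty-lip, and Spib at 0.80 to 1.66 FPKM in Clod-lip, against 0.503 to 1.12 FPKM in Empty-lip, none passing. The 1 gene of the list that passed, Cox6a2, rose and is also a gene of skeletal muscle. The T cell genes Cd3e, Cd3d and Cd8a did not reach the minimum, with Cd3e at 0 to 0.476 FPKM in Clod-lip, against 0 to 0.524 FPKM in Empty-lip. Cd4 did, at 0.613 to 1.59 FPKM in Clod-lip, against 1.16 to 2.00 FPKM in Empty-lip. Sums of 10 T and NK cell markers were 7.43 to 15.5 FPKM in Clod-lip, against 8.96 to 16.6 FPKM in Empty-lip, those of 5 B cell markers 6.20 to 7.26 FPKM in Clod-lip, against 4.13 to 5.73 FPKM in Empty-lip, and those of 6 conventional dendritic cell markers 39.3 to 46.6 FPKM in Clod-lip, against 37.4 to 49.7 FPKM in Empty-lip, with 0 of the tested genes of these 3 lists passing by limma and 1, the dendritic cell gene Cd209a, and 1, the B cell gene Cd79a, at an unadjusted p under 0.05.

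**Figure D5:**
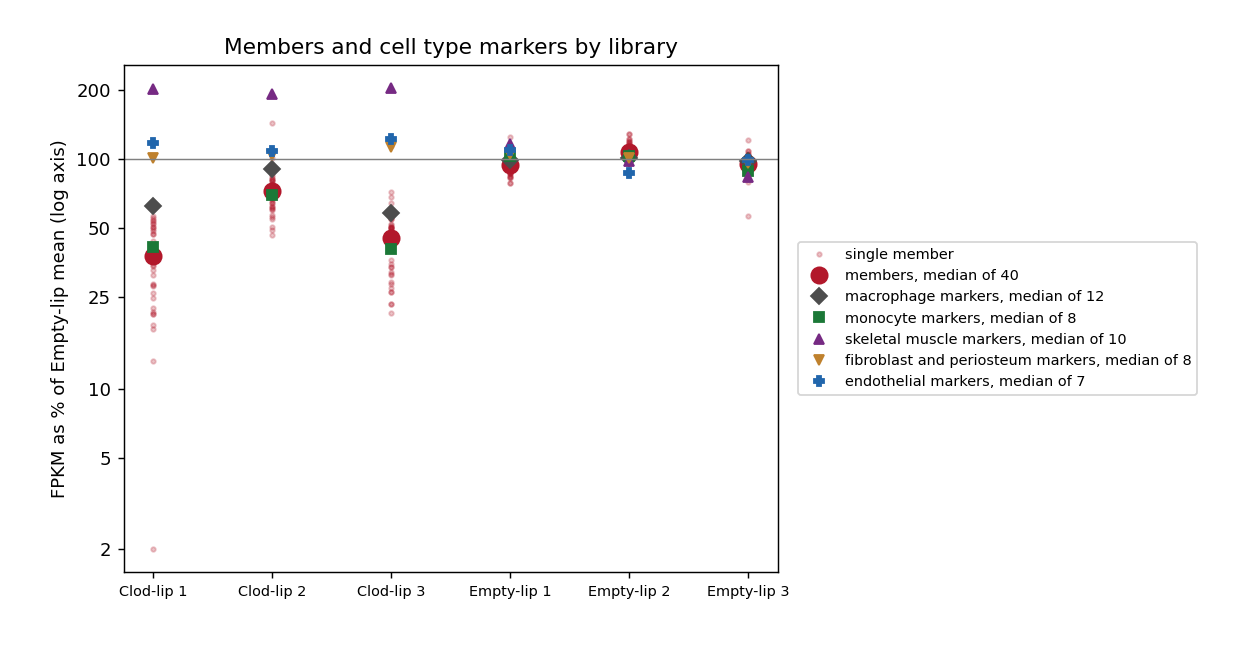
FPKM as a percentage of the Empty-lip mean, on a log axis, for single members (small points), their median, and the medians of 5 marker lists in each library, Clod-lip left and Empty-lip right. The median member, at 38.0%, 72.7% and 45.1% in Clod-lip 1, 2 and 3, lies near the median monocyte marker and below the median macrophage marker, while muscle markers lie far above their Empty-lip mean.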

How the data were processed

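Sequencing of total RNA was deposited by the authors as 1 table of FPKM per gene and library for 6 libraries (3 Clod-lip, 3 Empty-lip, assigned from sample titles). TopHat and build mm10 are named in the submitters' processing notes; which tool computed FPKM, whether libraries were scaled further and whether strand was kept is not given in the sources used here. FPKM are not counts, so no count test was run, and depth is known only in relative terms from the steps between low values, which limits the precision of low genes. The p-values and q-values of the authors' own comparison were copied from the deposited table; their fold change column holds text in some cells and was not used.

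The test was limma 3.58.1 (R 4.3.3), fitted with an intensity trend to log2(FPKM + 1) of the 13408 genes whose mean reached 0.5 FPKM, with Benjamini-Hochberg adjustment over all of them and a threshold of 0.05. The procedure was also run on simulated data, drawn for each gene independently with equal spread in both groups. The members vary together and spread more in Clod-lip, so that run does not cover their setting. Fold changes on this scale understate those of low genes. The members, role groups, pathway list and marker lists were chosen with earlier results of these data known. Values in every library are given for members that passed, those with a log2 change above 0 (none), the 2 of highest mean FPKM, Isg15, Ddx58 and Irf7; pathway genes and markers that passed are named, with up to 3 of a list by smallest p; library values of other genes, such as Isg20, Cxcl9, Zbp1 and Ifi44, were chosen after they were seen. Alternatives tried were a block for replicate number; the removal of each library, or of Empty-lip 1 and Clod-lip 2 together; pseudocounts of 0.1 and 0.5; no minimum, or one of 5 FPKM; quantile normalization; and limma with no trend. The same 13408 genes were kept when libraries were left out. Positions come from GENCODE M21 and sequences from RefSeq, both on GRCm38, and all 40 members overlapped their deposited position. Labels give no batch. The result for 1 pathway gene is not reported here.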

Additional observations from a re-analysis of the deposited data

How the results depend on the processing

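All 40 members kept a negative log2 change under every alternative in which they were tested, and their median ran from -1.11 to -0.69. Counts of members that passed (all lower), of pathway genes and of all genes moved from 13, 6 and 543 to 34, 13 and 1101 without Empty-lip 1 and Clod-lip 2 together, 0, 0 and 56 with no filter (34 members at an unadjusted p under 0.05), and 2, 0 and 284 by limma without trend. With no filter, the share of all genes at that unadjusted threshold was not counted. Leaving out 1 library gave 0 to 37 members, 0 to 16 pathway genes and 2 to 1392 genes. Members passing numbered 11 with either pseudocount, 16 with quantile normalization and 18 of 35 with a minimum mean of 5 FPKM. With the replicate number as a block, 5 members, 1 pathway gene and 170 genes passed, with 0.373% of all genes lower; 4 of the 5 members also passed without it. The numbers were not taken as pairs, since deviations of same-numbered libraries correlated at -0.08, -0.04 and 0.08 over 13408 genes, and not every library correlated best with its own number. Absolute depth is not known here, so low members such as Mx2 and Ddx60 carry an unknown counting error.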

Other observations

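Genes that fell without being members held the response element at a share between that of the members and that of all tested genes. Of 107 such genes with a RefSeq window, 12 held a match to GAAA, any 2 bases, GAAA, 11.2%, against 3.80% of tested genes with a window. The second pattern, TTC, any 3 bases, GAA, was held by 7 of the 107, 6.54%, against 8.36% of tested genes with a window. No test was made of these shares, and some of the genes that fell are interferon-stimulated genes outside the list of 40. Trim30d, the neighbour and close relative of Trim30a, was at 2.99, 7.00 and 5.53 FPKM in Clod-lip, against 13.4, 12.9 and 12.9 FPKM in Empty-lip.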
